A study of Mus musculus with 50 samples.

Results

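The circadian clock of a cell is a loop of transcription factors that turns each gene of the loop on and off about once a day. ARNTL pairs with CLOCK or NPAS2 and binds E-boxes to switch on the Per and Cry genes, whose proteins feed back to block that pair. The REV-ERB receptors (Nr1d1, Nr1d2) repress Arntl, and ROR receptors activate it. In liver, the loop drives output factors such as DBP, TEF and HLF, which bind D-boxes, and through them genes of detoxification, lipid and glucose metabolism. Feeding, fasting and glucocorticoids act on many of the same genes.

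The values of 33 clock and output genes are described here, out of 12180 genes in the table. They were chosen by name from a list of clock components, clock outputs and genes known to respond to the same hormones, and all 33 listed genes were found. The samples were livers of mice given as male adult F2 animals in the labels and as N2 animals of 5 weeks in the study's methods. The study measured mice of both sexes. Its linkage scans, those of expression included, were run both with sex as a covariate and without it. The methods do not state the sex of the animals sequenced, and whether all were male was not tested here. Their genome was C57BL/6J apart from A/J-derived segments on chromosomes 6 and 4. Mice were kept on a daily light and dark cycle and fasted overnight before sampling. Neither the labels nor the study's methods give the hour at which each liver was taken. The genotype of each animal was not used here. All 50 libraries therefore belonged to 1 group, and the relations below were sought across libraries.

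Counted reads on genes ran from 9430126 to 24355042 per library, with a median of 10791083. The lowest value that 3 reads can show was between 0.0951 and 0.259 normalized CPM (the read count relative to the library's total, after the authors' scaling between libraries), a floor that covers counting error only. In all 50 libraries the hepatocyte markers Alb, Apoa1, Ttr, Tat, Cps1 and Ahsg together exceeded the summed markers of each other cell type listed, from 81034 to 131725 normalized CPM. The sums of the others ran from 227.3 to 369.8 for Kupffer cells and leukocytes, 119.8 to 173.6 for endothelium, 53.45 to 134.1 for stellate cells, 13.10 to 39.59 for bile duct and 89.25 to 254.3 for red cells. The libraries carried a number from 1 to 59 and an animal number, and 2 animal numbers each stood on 2 libraries. The 50 libraries thus held 48 distinct animal numbers, and the study's own count of sequenced mice lies between these. Why the counts differ was not worked out. The library numbered 10 shared its animal number with the library numbered 8, and the library numbered 22 with that numbered 55. Over the members, the median difference was 1.29 SD within the first pair and 1.27 SD within the second, against a median of 0.949 SD over all 1225 pairs of libraries. The libraries that share a number were therefore no closer to each other than most others. These libraries stood apart in the members, since the library numbered 22 held the highest or lowest value of 10 members and that numbered 10 of 8 members. The library numbered 15 held 8 such values, 7 of them lowest. The fits were repeated without each of these 3 libraries, and calls that changed are given beside the results.

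The activators of the loop differed widely in level. Levels are compared between genes per kilobase of annotated exon. Clock, the constitutive partner of the pair, stood at 2.91 ± 0.478 normalized CPM per kilobase (SD, n = 50 libraries) and was higher than Arntl, at 2.09 ± 0.663, in 43 of 50 libraries. Npas2, which can take the place of Clock, was at 0.353 ± 0.280 and below Arntl in all 50. Not scaled by length, Arntl (ENSMUSG00000055116, chr7:113207465-113314126 of GRCm38) ranged from 5.37 through a median of 16.7 to 27.5 normalized CPM. Clock ranged from 21.8 through 40.8 to 52.2. Npas2 (chr1:39193731-39363236) ranged from 0.233 through 1.25 to 5.98, a span of 25.6-fold, and its lowest value rested on 3 reads. Clock thus moved by 2.39-fold between the most distant livers and Arntl by 5.12-fold.

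Among the repressors, Per1 was the highest of the Period genes per kilobase in all 50 libraries, at 4.86 ± 1.33 normalized CPM per kilobase (SD, n = 50). Per2 stood at 1.06 ± 0.426 and Per3 at 0.488 ± 0.242, and Per2 was above Per3 in all 50. Cry2, at 3.51 ± 0.719, was above Cry1, at 2.35 ± 0.927, in 42 of 50. In normalized CPM, Per1 ranged from 11.9 through 27.4 to 52.9. Per2 ranged from 1.85 through 5.76 to 15.6. Per3, the only member on chromosome 4 (151003652 to 151044665), ranged from 1.26 through 4.26 to 11.8. Cry1 ranged from 3.41 through 6.96 to 21.96, and its highest value came from the library numbered 22. Cry2 kept within a span of 2.76-fold, from 12.1 through 22.8 to 33.4. Ciart, a repressor of the ARNTL pair whose transcript swings strongly over the day, ran from 0.584 through 5.50 to 22.4, a span of 38.3-fold.

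Of the nuclear receptors, Nr1d1 was above Nr1d2 per kilobase in 48 of 50 libraries, at 15.1 ± 7.40 against 7.11 ± 1.80 normalized CPM per kilobase (SD, n = 50). Nr1d1 (chr11:98767932-98775333) ranged from 11.7 through 42.6 to 99.4 normalized CPM, and Nr1d2 from 19.03 through 38.3 to 58.9. Rora, an activator of Arntl, had a narrower span of 2.54-fold, from 27.4 through 48.4 to 69.7. The D-box activators were ordered Tef, Hlf and Dbp, at 9.57 ± 2.60, 5.97 ± 0.890 and 3.57 ± 2.72 normalized CPM per kilobase. Tef exceeded Hlf in 47 libraries and Dbp in 49, and Hlf exceeded Dbp in 42. Dbp (ENSMUSG00000059824, chr7:45705088-45710203) ranged from 2.23 through 8.46 to 36.1 normalized CPM, a span of 16.2-fold, while Hlf spanned 2.07-fold. Nfil3, which represses at D-boxes, ranged from 10.1 through 25.4 to 49.3. Bhlhe40 and Bhlhe41 (DEC1 and DEC2), which compete for E-boxes, both lie on chromosome 6. Bhlhe40 ranged from 7.77 through 25.2 to 58.4. Bhlhe41 was close to the floor, with a mean of 0.359 ± 0.321 (SD, n = 50) and 3 or fewer reads in 21 libraries, and was not tested below.

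The remaining members include outputs and hormone-responsive genes. Upp2, a liver uridine phosphorylase, was the highest per kilobase, at 38.4 ± 13.3 normalized CPM per kilobase. Alas1, the rate-limiting enzyme of heme synthesis, followed at 34.9 ± 11.3 and Tsc22d3 (GILZ), a glucocorticoid target, at 29.7 ± 11.7, and these means lay within an SD of each other. Lpin1, a phosphatidate phosphatase and coactivator induced by fasting, spanned 32.4-fold, from 16.8 through 149.7 to 544.2 normalized CPM. Noct, a phosphatase also called nocturnin, spanned 55.6-fold, from 0.783 through 16.97 to 43.6. Fkbp5, a chaperone of the glucocorticoid receptor and one of its targets, ranged from 28.7 through 104.6 to 253.6. Usp2, a deubiquitinase that follows the clock in liver, ranged from 2.44 through 13.9 to 32.1. The cell cycle inhibitor Cdkn1a ranged from 13.3 through 35.2 to 118.2, with both extremes in the libraries numbered 10 and 22. The kinase Csnk1d, which marks PER proteins for turnover, was the steadiest member, from 44.3 through 57.9 to 74.95. Wee1 and Timeless were low, at medians of 1.86 and 1.68.

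**Figure D1:**
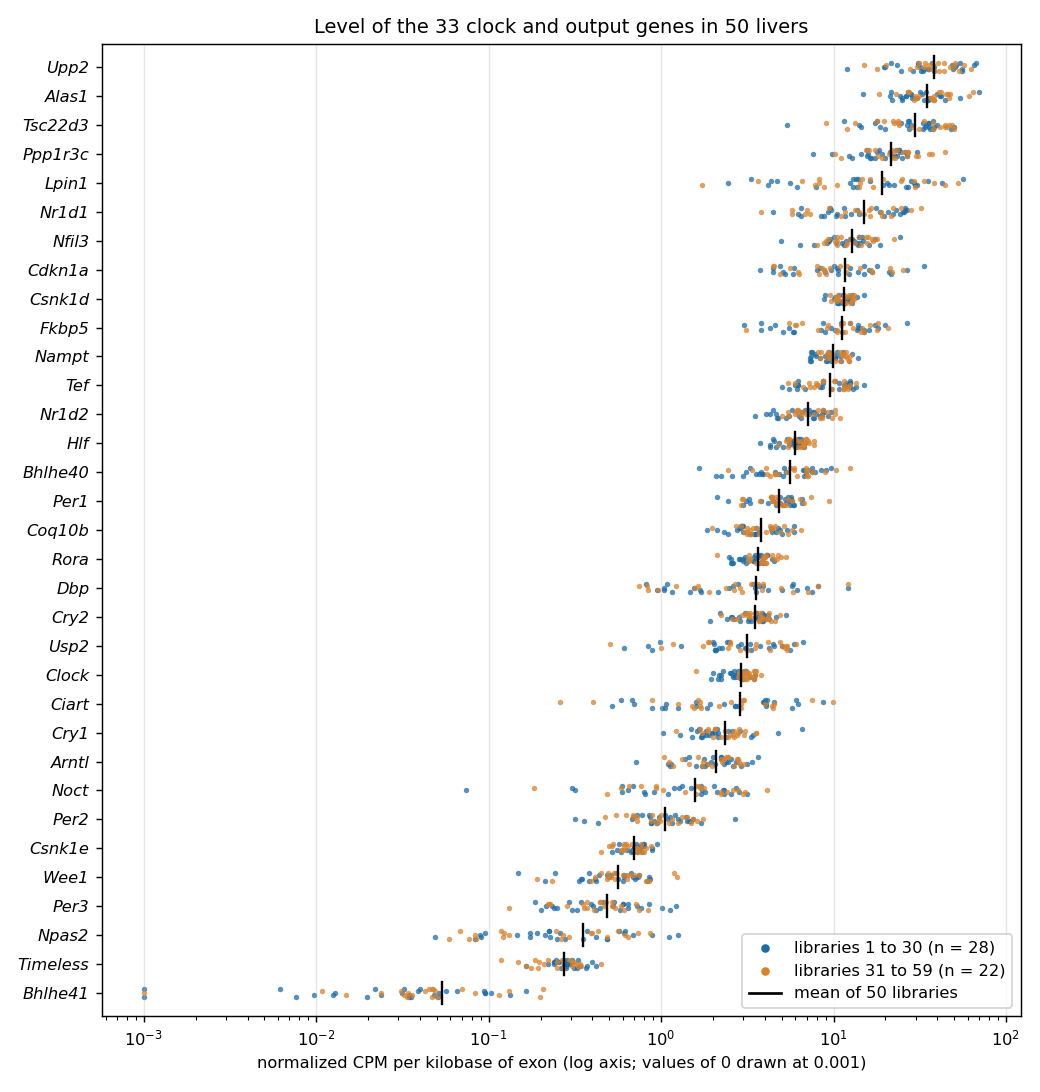
Level of each member in each library in normalized CPM per kilobase of annotated exon on a log axis, ordered by the mean (black bar), with libraries numbered 1 to 30 (n = 28) and 31 to 59 (n = 22) in different colours. The means ran from 0.0534 for Bhlhe41 to 38.4 for Upp2, and Lpin1, Dbp, Ciart, Noct, Npas2 and Bhlhe41 were spread widely.

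The members varied more from liver to liver than most genes of like level. The median coefficient of variation was 34.6% over the 33 members and 17.2% over the 12180 genes. For 25 members it was at or above the 90th percentile of the 200 genes nearest in mean value. It exceeded 50% in 8 members, against 4.02% of the whole table. The highest was that of Bhlhe41 at 89.5%, followed by Npas2 at 79.3%, Dbp at 76.2%, Ciart at 74.2% and Lpin1 at 69.5%. At the other end were Csnk1d at 10.4%, Hlf at 14.9%, Csnk1e at 15.4%, Nampt at 16.4% and Clock at 16.4%. The part of the variance that counting error alone would give was 61.9% for Csnk1e and 66.2% for Timeless. It was under 10% in 28 members, among them Dbp at 1.09% and Arntl at 4.29%.

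The library numbered 10 and the library numbered 44 held almost equal and the highest values of Dbp, at 36.1 each. Library 10 had the lowest Arntl (5.37) together with the highest Per2 (15.6), Per3 (11.8) and Tef (117.6). Library 44 had the highest Nr1d1 (99.4) and Bhlhe40 (58.4) and the lowest Clock (21.8). Library 22, by contrast, had the highest Arntl (27.5), Cry1 (21.96), Nfil3 (49.3), Cdkn1a (118.2), Fkbp5 (253.6), Lpin1 (544.2), Usp2 (32.1) and Upp2 (517.9), and its Dbp was 3.24. Library 8, which has the animal number of library 10, held Dbp at 6.36 and Arntl at 13.6. Library 55, which has that of library 22, held Dbp at 2.89, Arntl at 14.1 and Lpin1 at 75.1.

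To ask which members moved with the D-box factor Dbp, each gene's log2(value + 0.5) was fitted on that of Dbp across the 50 libraries. Dbp was chosen as the output with a wide daily swing. Of the 31 members tested, 9 rose and 5 fell with it (limma, adjusted p under 0.05), which is 29% and 16.1%, against 1.22% and 1.38% of the 11430 genes tested. The median size of a slope was 0.21 log2 units per log2 unit of Dbp over the members and 0.03 over all genes. A slope in log2 units grows with a gene's own spread, which was wider in the members, here and in the fits below. On animal number, where the members passed about as often as all genes, these medians were 0.199 and 0.0756. Tef, Per3, Nr1d1, Nr1d2, Cry2, Ciart, Usp2, Upp2 and Bhlhe40 rose with Dbp, while Arntl, Npas2, Cry1, Nfil3 and Cdkn1a fell as it rose. The last set thus holds 2 activators of the loop and the D-box repressor.

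Among those that rose, Tef gained 0.35 log2 units per log2 unit of Dbp (SE 0.030, limma, adjusted p = 1.3e-11) and Per3 0.50 (SE 0.053, adjusted p = 5.11e-09). Nr1d1 gained 0.56 (SE 0.071, adjusted p = 3.41e-07) and Nr1d2 0.26 (SE 0.039, adjusted p = 1.61e-05). The repressors Cry2 and Ciart gained 0.21 (SE 0.031, adjusted p = 6.49e-06) and 0.69 (SE 0.10, adjusted p = 9.16e-06). Upp2 gained 0.34 (SE 0.060, adjusted p = 0.000379), Usp2 0.47 (SE 0.096, adjusted p = 0.00238) and Bhlhe40, on chromosome 6, 0.33 (SE 0.072, adjusted p = 0.00448). The same 9 passed the threshold when the libraries numbered 10 and 22 were left out. Correlations give the tightness of these relations. For Tef, Pearson r with Dbp was 0.852 and Spearman rho 0.871 (permutation p = 1e-05 each, the smallest that 100000 permutations give, n = 50). Leaving out the 2 libraries with the most extreme Dbp values gave an r of 0.852, and r was 0.847 in libraries 1 to 30 and 0.874 in libraries 31 to 59. For Per3, r was 0.797 and rho 0.800 (permutation p = 1e-05 each), with 0.824 and 0.768 within the sets and 0.807 without the 2 farthest libraries. These are 2 of 96 relations computed between members and the 3 reference genes, and the adjusted p values above cover all genes tested. The fits and the permutations treat the libraries as independent. Animals with neighbouring numbers were more alike in the members than in most genes, as given below, so these p values may be too small.

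Among those that fell, Npas2 had a slope of -0.59 (SE 0.080, limma, adjusted p = 1.67e-06) and Arntl one of -0.31 (SE 0.051, adjusted p = 7.48e-05). Cdkn1a had a slope of -0.45 (SE 0.086, adjusted p = 0.000922), Cry1 of -0.21 (SE 0.055, adjusted p = 0.0268) and Nfil3 of -0.18 (SE 0.052, adjusted p = 0.0410). For Arntl, r with Dbp was -0.650 (permutation p = 1e-05) and rho -0.594 (permutation p = 5e-05), and r was -0.625 and -0.689 within the sets of library numbers and -0.568 without the 2 farthest libraries. Without the libraries numbered 10 and 22, 3 members fell with Dbp, against 224 of the 11430 genes tested. Cry1 did not pass without the library numbered 10 (limma, adjusted p = 0.0670), and Nfil3 passed neither without it (0.116) nor without the library numbered 22 (0.0529). Of the members that did not pass, Per2 came closest, with a slope of 0.23 (SE 0.068, limma, adjusted p = 0.0565). It passed without the library numbered 15 (limma, adjusted p = 0.0410). The slope of Per1 was 0.04 (SE 0.056, adjusted p = 0.736), that of Clock -0.08 (SE 0.034, adjusted p = 0.184) and that of Tsc22d3 -0.02 (SE 0.095, adjusted p = 0.927). Bhlhe41 was left out by the filter on low values, and with no filter it rose with Dbp.

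**Figure D2:**
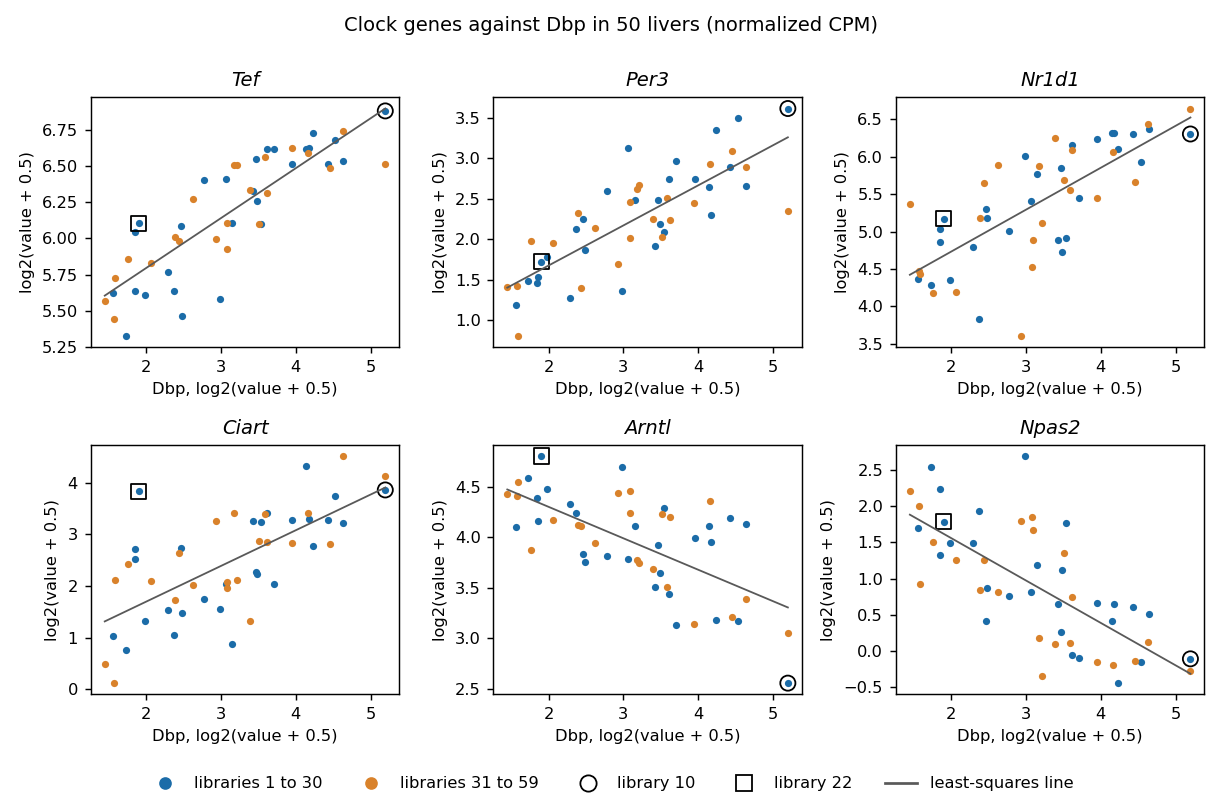
Normalized CPM of 6 members (y axis) against that of Dbp (x axis), both as log2(value + 0.5), 1 point per library (n = 50), coloured by library number set, with the libraries numbered 10 and 22 ringed and boxed and a least-squares line. Tef, Per3, Nr1d1 and Ciart rose with Dbp, and Arntl and Npas2 fell, with library 10 at the lowest Arntl value and library 22 far above the line for Ciart.

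The same relations were then tested within sets of library numbers. In libraries 1 to 30, 6 members rose and 2 fell, and in libraries 31 to 59, 4 rose and 1 fell, with 28 and 22 libraries. Of all genes tested, 0.280% and 0.122% passed in these sets. A test of whether slopes on Dbp differ between the sets gave 0 genes of 11430 with an adjusted p under 0.05 (limma, interaction term), where 324 had an unadjusted p under 0.05. This does not show that the slopes were equal.

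Promoter sequences of the members that led these relations were read for the motifs that the loop uses. In the RefSeq promoter table for GRCm38.p6, 29 of the 33 members had an entry, with 42 start sites, and Bhlhe40, Csnk1d, Per2 and Wee1 had none. The 250 bases before each start were searched on both strands for the E-box, CACGTG, and the D-box, TTATGTAA or TTACGTAA, which do not overlap one another. An E-box was present in 9 of the 42 member promoters, belonging to 8 genes (Per1, Cry1, Tef, Bhlhe41, Ciart, Coq10b, Fkbp5 and Ppp1r3c), and in 6.02% of all 32851 promoters. A D-box was present in Per3, Timeless and Coq10b and in 0.931% of all promoters. The ROR element TAGGTCA was found before Nfil3 and in 2.23% of all promoters. The cyclic AMP element TGACGTCA was found before Hlf and in 1.55%. The glucocorticoid element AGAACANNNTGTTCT was found before 0 of the 42 and in 3 promoters of the table.

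4 of these promoters are shown. Ciart, Per3 and Tef had a steep or tight relation to Dbp and carry the motif of an activator or output factor. Cry1 is set beside them as an E-box gene that had a negative slope. Nr1d1, Nr1d2, Cry2, Usp2 and Upp2 also rose with Dbp, and their searched promoters hold neither an E-box nor a D-box. The E-box genes Per1, Coq10b, Fkbp5 and Ppp1r3c did not pass with Dbp. Of the D-box genes other than Per3, neither Timeless nor Coq10b passed (limma, adjusted p = 0.459 and 0.306). Ciart holds 3 E-boxes, the most of any member, Per3 holds 2 D-boxes and Cry1 holds 1 E-box. Both Tef promoters in the table hold 1 E-box each, at -127 and -138, and the latter is printed. Bases inside an annotated exon are left out, and the strand is that of the gene, read 5′ to 3′. Capitals mark the E-box or the D-box.
Ciart, chr3:95882252-95882478, minus strand of GRCm38.p6: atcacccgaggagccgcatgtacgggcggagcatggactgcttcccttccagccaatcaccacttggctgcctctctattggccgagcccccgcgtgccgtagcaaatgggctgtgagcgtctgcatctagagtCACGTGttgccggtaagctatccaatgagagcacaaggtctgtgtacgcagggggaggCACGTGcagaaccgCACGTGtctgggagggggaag
Per3, chr4:151044666-151044915, minus strand: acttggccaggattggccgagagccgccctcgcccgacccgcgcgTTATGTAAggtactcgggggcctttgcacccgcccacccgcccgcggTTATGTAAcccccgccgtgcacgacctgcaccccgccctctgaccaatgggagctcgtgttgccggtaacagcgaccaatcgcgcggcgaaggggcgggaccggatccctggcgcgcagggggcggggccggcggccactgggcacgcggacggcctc
Tef, chr15:81811164-81811413, plus strand: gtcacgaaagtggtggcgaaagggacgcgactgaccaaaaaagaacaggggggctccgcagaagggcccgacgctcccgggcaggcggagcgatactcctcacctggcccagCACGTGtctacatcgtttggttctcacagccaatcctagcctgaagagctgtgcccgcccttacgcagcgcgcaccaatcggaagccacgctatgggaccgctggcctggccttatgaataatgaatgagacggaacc
Cry1, chr10:85185065-85185304, minus strand: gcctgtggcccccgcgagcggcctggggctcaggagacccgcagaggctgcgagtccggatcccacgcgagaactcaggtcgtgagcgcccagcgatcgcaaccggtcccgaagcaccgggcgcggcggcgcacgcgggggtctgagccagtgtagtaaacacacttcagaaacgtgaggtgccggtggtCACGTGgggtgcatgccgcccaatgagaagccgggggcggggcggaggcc
The 3 E-boxes of Ciart begin at -116, -58 and -44 relative to its start, and that of Cry1 at -60. The D-boxes of Per3 begin at -205 and -158. Ciart, Per3 and Tef rose with Dbp, and Cry1, with the same 6 letters as Ciart and Tef, fell with it.

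The activator Arntl gave a second axis, which stands opposite Dbp in the loop. Of 31 members tested, 4 rose with Arntl (12.9%) and 14 fell (45.2%), against 5.47% and 5.78% of the 11430 genes tested (limma, adjusted p under 0.05). The median size of a slope was 0.47 log2 units per log2 unit of Arntl over the members and 0.08 over all genes. The fit on Arntl and that on Dbp used the same 50 libraries, so they are not independent of each other. Npas2, Cry1, Cdkn1a and Nfil3 rose with Arntl. Npas2 gained 1.35 (SE 0.15, adjusted p = 5.01e-09), with a Pearson r of 0.789 and a Spearman rho of 0.799 (permutation p = 1e-05 each, n = 50). Its r was 0.824 in libraries 1 to 30 and 0.755 in libraries 31 to 59, and it was 0.790 once the 2 libraries with the most extreme Arntl values were left out. Cry1 gained 0.48 (SE 0.11, limma, adjusted p = 0.00412), Cdkn1a 0.76 (SE 0.20, adjusted p = 0.00822) and Nfil3 0.36 (SE 0.11, adjusted p = 0.0247). Npas2 alone of these 4 stayed past the threshold without the libraries numbered 10 and 22. For Nfil3, leaving out either one was enough (limma, adjusted p = 0.139 without the former and 0.0556 without the latter).

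The genes that fell as Arntl rose included repressors of the loop, D-box factors and outputs. Per3 had a slope of -0.91 (SE 0.13, limma, adjusted p = 4.56e-06) and Per2 of -0.68 (SE 0.13, adjusted p = 0.000386). Tef had a slope of -0.59 (SE 0.086, adjusted p = 7.88e-06) and Dbp of -1.35 (SE 0.22, adjusted p = 5.55e-05). Coq10b, a coenzyme Q chaperone, had a slope of -0.47 (SE 0.10, adjusted p = 0.00204) and Nr1d2 of -0.40 (SE 0.094, adjusted p = 0.00406). Usp2 had a slope of -0.85 (SE 0.21, adjusted p = 0.00665), Upp2 of -0.54 (SE 0.14, adjusted p = 0.00958) and Lpin1 of -1.14 (SE 0.30, adjusted p = 0.00958). Nr1d1, the repressor of Arntl, had a slope of -0.70 (SE 0.20, adjusted p = 0.0150). Nampt, which makes the NAD precursor NMN, had a slope of -0.22 (SE 0.062, adjusted p = 0.0165) and Noct of -0.94 (SE 0.27, adjusted p = 0.0186). Tsc22d3 and Ciart also fell, with adjusted p values of 0.0261 and 0.0310. Ciart did not pass without the library numbered 10 (limma, adjusted p = 0.0549), that numbered 15 (0.0551) or that numbered 24 (0.0576). Without the library numbered 15, Noct (0.0584) and Tsc22d3 (0.0789) did not pass either, so 11 members fell, against 409 of the 11430 genes tested. The relation of Per2 to Arntl had an r of -0.605 (permutation p = 1e-05) and a rho of -0.570 (permutation p = 2e-05), with -0.711 and -0.418 within the sets and -0.574 without the 2 farthest libraries. Without the libraries numbered 10 and 22, 16 members fell and 1 rose, against 828 and 767 of the 11430 genes tested (13.95% in all). Csnk1d and Fkbp5 then passed as well, as they did without the library numbered 22 alone (limma, adjusted p = 0.0433 and 0.0222). Cry2 and Per1 did not pass, with slopes of -0.18 (SE 0.084, adjusted p = 0.159) and -0.23 (SE 0.11, adjusted p = 0.169).

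Fkbp5 was taken as an axis outside the loop, since glucocorticoids induce it and also act on the clock. Of 31 members tested, 12 rose with Fkbp5 (38.7%) and 1 fell (3.23%), against 8.02% and 8.17% of the 11430 genes tested. The median size of a slope was 0.19 log2 units per log2 unit of Fkbp5 over the members and 0.05 over all genes. Lpin1 gained 1.32 (SE 0.12, limma, adjusted p = 6.05e-12) and Upp2 0.61 (SE 0.056, adjusted p = 2.08e-11). Usp2 gained 0.85 (SE 0.10, adjusted p = 2.05e-08), Csnk1d 0.14 (SE 0.022, adjusted p = 7.3e-06) and Ciart 0.87 (SE 0.14, adjusted p = 1.41e-05). Nampt gained 0.19 (SE 0.035, adjusted p = 8.23e-05), Tef 0.28 (SE 0.065, adjusted p = 0.0015) and Per2 0.37 (SE 0.087, adjusted p = 0.00181). Nr1d1 gained 0.50 (SE 0.12, adjusted p = 0.00292), Coq10b 0.26 (SE 0.067, adjusted p = 0.00402) and Nr1d2 0.22 (SE 0.063, adjusted p = 0.0116). Bhlhe40 passed narrowly, at 0.29 (SE 0.11, adjusted p = 0.0498), and did not under 13 of 21 alternative settings, among them without the library numbered 24 (adjusted p = 0.0663) and without that numbered 22 (0.0727). Npas2 fell, with a slope of -0.60 (SE 0.13, adjusted p = 0.00058).

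For Lpin1, r with Fkbp5 was 0.846 and rho 0.794 (permutation p = 1e-05 each, n = 50), with 0.872 and 0.820 within the sets and 0.821 with the 2 most extreme libraries in Fkbp5 left out. For Upp2, r was 0.838 and rho 0.847 (permutation p = 1e-05 each), with 0.845 and 0.832 within the sets and 0.855 without the 2 farthest. Csnk1d, whose level spanned 1.69-fold in all, still had an r of 0.701 and a rho of 0.769 (permutation p = 1e-05 each), with 0.647 and 0.818 within the sets and 0.672 without the 2 farthest. Dbp and Arntl did not pass in this fit, with slopes of 0.45 (SE 0.18, limma, adjusted p = 0.0723) and -0.21 (SE 0.085, adjusted p = 0.0838). Both passed without the library numbered 22, with adjusted p values of 0.0262 and 0.0180. Per3 did not pass either, at 0.24 (SE 0.11, adjusted p = 0.136). The glucocorticoid targets Tsc22d3 and Per1 had slopes of 0.19 (SE 0.12, adjusted p = 0.317) and 0.06 (SE 0.075, adjusted p = 0.663), and Noct had 0.07 (SE 0.19, adjusted p = 0.845). With Dbp as a covariate, Bhlhe40 and Nr1d2 no longer passed with Fkbp5 and Cry1 and Cdkn1a did, both rising. With Fkbp5 as a covariate, the same 14 members passed with Dbp.

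**Figure D3:**
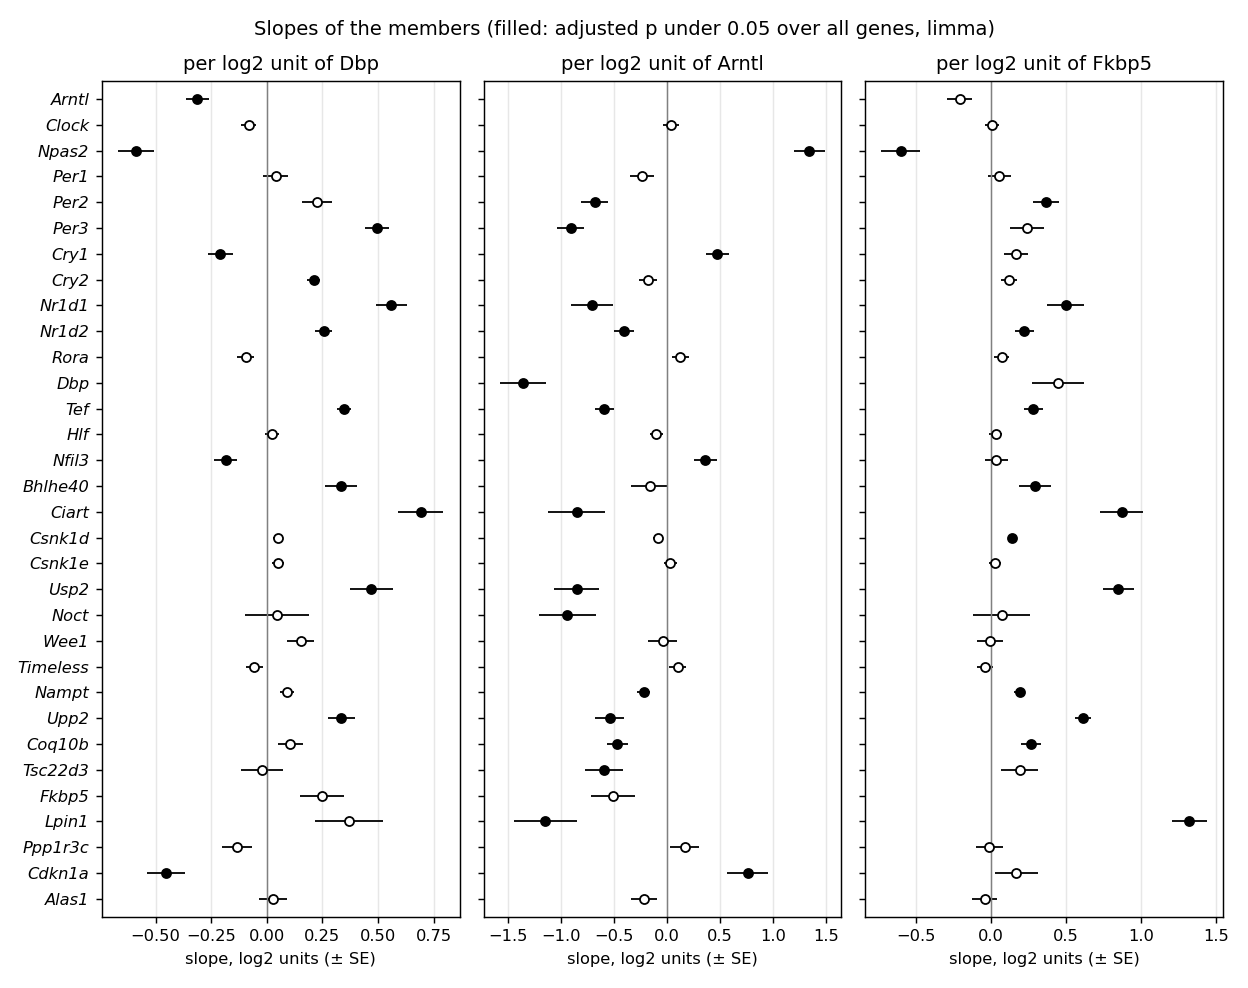
Slope of each tested member in log2 units per log2 unit of Dbp, Arntl or Fkbp5 (x axis, bar: SE, n = 50 libraries), with filled points where the adjusted p was under 0.05 over all genes (limma). Most members lay right of 0 for Dbp and Fkbp5 and left of 0 for Arntl, and Npas2 lay on the opposite side from Tef in each panel.

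A few members other than the 3 reference genes also went together with one another, and of these Noct and Tsc22d3 had fallen with Arntl as well. They were chosen after the correlations between members were seen, so their values are a description without a test. Noct and Tsc22d3 had a Pearson r of 0.865 and a Spearman rho of 0.826 over the 50 libraries, and Per1 had an r of 0.721 with Noct (rho 0.682) and 0.644 with Tsc22d3 (rho 0.513). Within sets of library numbers, r of Noct with Tsc22d3 was 0.898 and 0.821. The library numbered 15 held the lowest value of both, 0.783 for Noct and 23.4 for Tsc22d3, and r was 0.825 without it and 0.818 with the 2 most extreme libraries in Noct left out. Clock and Rora, which hold the longest annotated exon lengths among the members (13727 and 13071 bases), had an r of 0.722 and a rho of 0.577. The part of transcript length in this relation was not tested. Clock, Per1, Rora, Hlf, Csnk1e, Wee1, Timeless, Alas1 and Ppp1r3c, a glycogen-targeting subunit, passed in none of the 3 fits on Dbp, Arntl and Fkbp5.

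**Figure D4:**
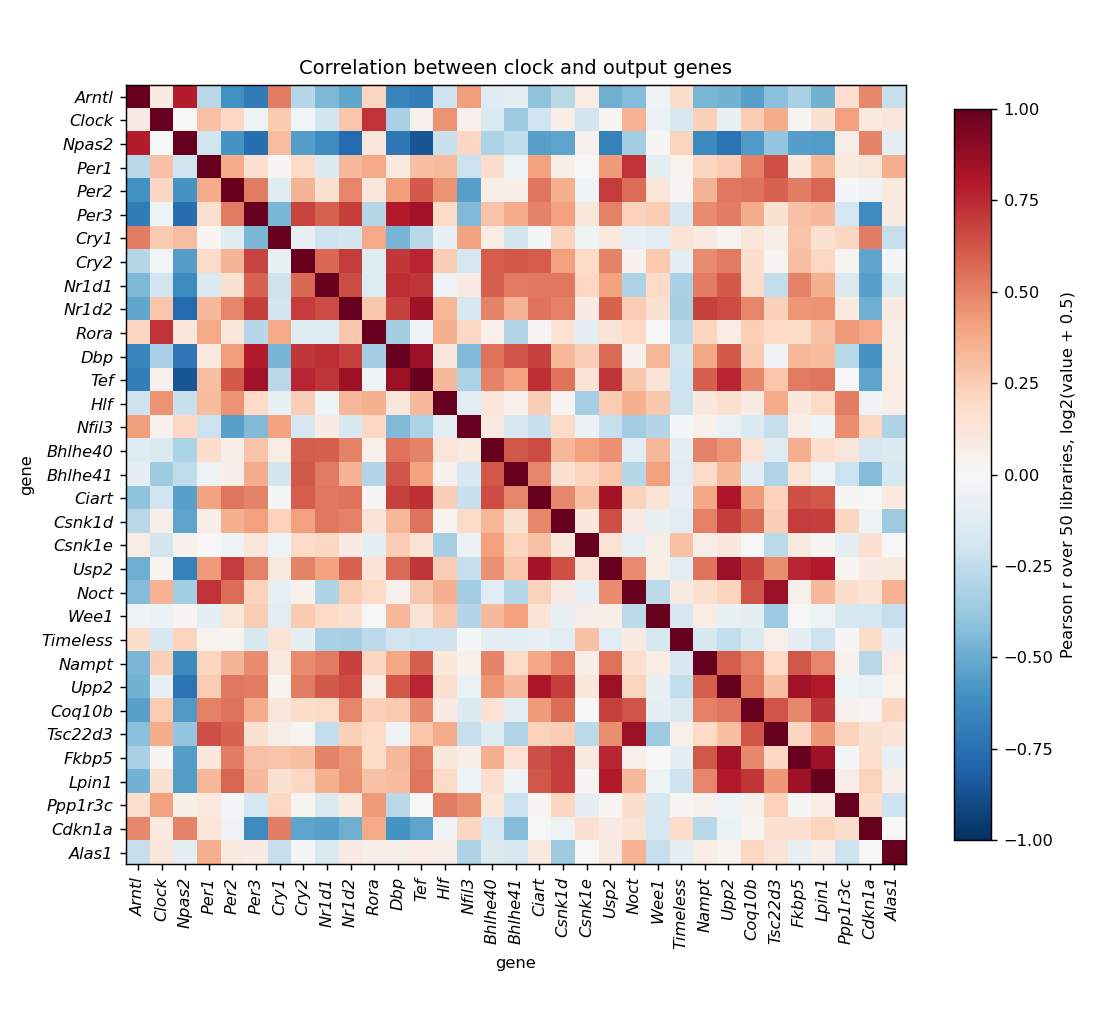
Pearson correlation of log2(value + 0.5) between each pair of the 33 members over 50 libraries (colour scale from -1 to 1). Dbp, Tef, Per3, Nr1d1, Nr1d2 and Cry2 form a block of positive values, and Arntl and Npas2 are negative to it. Noct, Tsc22d3 and Per1 are positive to one another. They are also positive to Coq10b (0.631, 0.628 and 0.505) and Per2 (0.559, 0.591 and 0.373).

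Other genes were placed beside the members by fixed rules. The 5 genes most positively correlated with Dbp over the 50 libraries were Tef (r = 0.852), Per3 (0.797), Nr1d1 (0.742), Cyp2a5 (0.724), a coumarin hydroxylase of liver, and Tns2 (0.709). Among the 5 most negative were Pxmp4 (-0.793), Btg1 (-0.776), St5 (-0.739) and Npas2 (-0.717), and 4 of these 10 of 11430 genes were members. For Arntl the highest were Lgalsl (0.853), Clpx (0.835), St5 (0.803), Npas2 (0.789) and Loxl4 (0.762), and the lowest Cd207 (-0.744), Per3 (-0.700), Tef (-0.695), Cd1d1 (-0.690) and the glucagon receptor Gcgr (-0.678). For Fkbp5 the highest were the interleukin 6 receptor Il6ra (0.861), Lpin1 (0.846), Fbxo31 (0.845), Upp2 (0.838) and Mtss1 (0.831), and the lowest Cda (-0.821), Trmt9b (-0.744), Rxrg (-0.741), Rnf152 (-0.740) and Rhou (-0.732).

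Of 25 further liver genes known as clock outputs, 1 rose with Dbp and 3 fell (4% and 12%, against 1.22% and 1.38% of all genes). Cyp2a5 rose by 0.40 log2 units per log2 unit of Dbp (SE 0.053, limma, adjusted p = 1.25e-06), and Insig2 (-0.19) and Pdk4 (-0.26) were among those that fell. With Arntl, 6 of them rose and 6 fell (24% each, against 5.47% and 5.78% of all genes), and with Fkbp5, 9 rose and 3 fell (36% and 12%, against 8.02% and 8.17%). Cyp2a5 had a slope of -0.67 on Arntl (limma, adjusted p = 0.000785). Of 27 regulators of the clock (kinases, ubiquitin ligases and corepressors), 0 passed with Dbp (limma, 5 at an unadjusted p under 0.05), while 3 rose with Arntl, among them Cul1 (11.1%), and 1 rose and 3 fell with Fkbp5 (3.7% and 11.1%), the latter near the shares of all genes. Among 20 glucocorticoid-responsive genes, of which Per1, Tsc22d3, Fkbp5 and Cdkn1a are also members, only Cdkn1a passed with Dbp. With Arntl, 3 of them rose, Cdkn1a included, and 4 fell, Tsc22d3 included (15% and 20%, against 5.47% and 5.78% of all genes). With Fkbp5, 2 of 19 rose (10.5%), near the share of all genes. These were Zbtb16, at 1.07 log2 units (SE 0.13, adjusted p = 4.49e-08), and Tat, at 0.30 (SE 0.071, adjusted p = 0.00162). Of 22 fasting-responsive genes, of which Lpin1, Ppp1r3c and Alas1 are also members, 1 fell with Dbp (4.55%, against 1.38% of all genes). With Arntl, 2 of them rose and 3 fell (9.09% and 13.6%). With Fkbp5, 4 rose (Lpin1, Sesn1, Ddit4 and Ppargc1a, 18.2%) and 1 fell (Pdk4, 4.55%). The marker genes of hepatocytes and of other cell types did not pass with Dbp (limma, 3 at an unadjusted p under 0.05). With Arntl, the endothelial genes Kdr and Clec4g had slopes of 0.18 and -0.20, the bile duct gene Krt19 of -0.29 and the red cell gene Hba-a1 of 0.53, and the other markers did not pass. With Fkbp5, those that passed were Kdr (-0.11), Krt19 (0.16) and the hepatocyte gene Tat. Their part in the relations of the members was not tested. Less RNA per cell and fewer cells of a type cannot be told apart in these bulk samples.

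No label other than the library number and the animal number separates the libraries, and both were examined for the members. In the later set of library numbers (31 to 59, n = 22), 3 of 32 members were higher than in the earlier set (1 to 30, n = 28) and 0 were lower (9.38% and 0%), against 7.06% and 6.41% of the 11431 genes tested (limma, 1 member lower at an unadjusted p under 0.05). The members' share was thus near that of all genes. Clock was at 43.1 ± 6.00 (SD, n = 22) against 37.4 ± 5.93 normalized CPM (n = 28), a difference of 0.20 log2 units (SE 0.066, limma, adjusted p = 0.0325). Rora was at 51.5 ± 9.20 against 44.3 ± 7.64 (0.21, SE 0.074, adjusted p = 0.0456), and Hlf at 42.7 ± 5.23 against 37.7 ± 5.62 (0.18, SE 0.059, adjusted p = 0.0316). The ranges of the sets overlapped for each. Rora did not pass without the library numbered 10 (limma, adjusted p = 0.0607), that numbered 15 (0.0563) or that numbered 24 (0.0579), nor Hlf without those numbered 10 and 22 (0.0606). Counted reads had a median of 10323763.5 in the later set and 11250501.5 in the earlier, and with counted reads as a covariate 0 members passed (limma, 6 at an unadjusted p under 0.05).

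With animal number, 1 of 32 members rose and 2 fell (3.12% and 6.25%), against 7.49% and 6.73% of the 11431 genes tested, again near the share of all genes. Npas2 rose by 0.63 log2 units per 100 animal numbers (SE 0.21, limma, adjusted p = 0.0374). Nr1d2 had a slope of -0.30 (SE 0.096, adjusted p = 0.0277) and Nampt of -0.18 (SE 0.061, adjusted p = 0.0333). With the share of reads on the 10 highest genes as a covariate, 0 members passed (limma, 0 at an unadjusted p under 0.05), and 62 of all genes passed in place of 1625. With Arntl as a covariate, 0 members passed (limma, 6 at an unadjusted p under 0.05). Without the library numbered 24, Nr1d2 was the 1 member left (limma, adjusted p = 0.0507 for Nampt and 0.0568 for Npas2), without that numbered 22 Wee1 passed as well (adjusted p = 0.0461), and without the libraries that share an animal number it was Nampt. Animals with neighbouring numbers were more alike in the members than in most genes, an observation made after the values were seen. Over 49 neighbouring pairs in the order of animal numbers, the correlation of a library with the next had a median of 0.271 over the 32 members and 0.113 over all 11431 genes. It reached 0.627 for Upp2, 0.572 for Npas2, 0.564 for Tef, 0.545 for Dbp, 0.541 for Nr1d1 and 0.535 for Ciart, and 14 members lay above the 90th percentile of all genes (0.337).

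**Figure D5:**
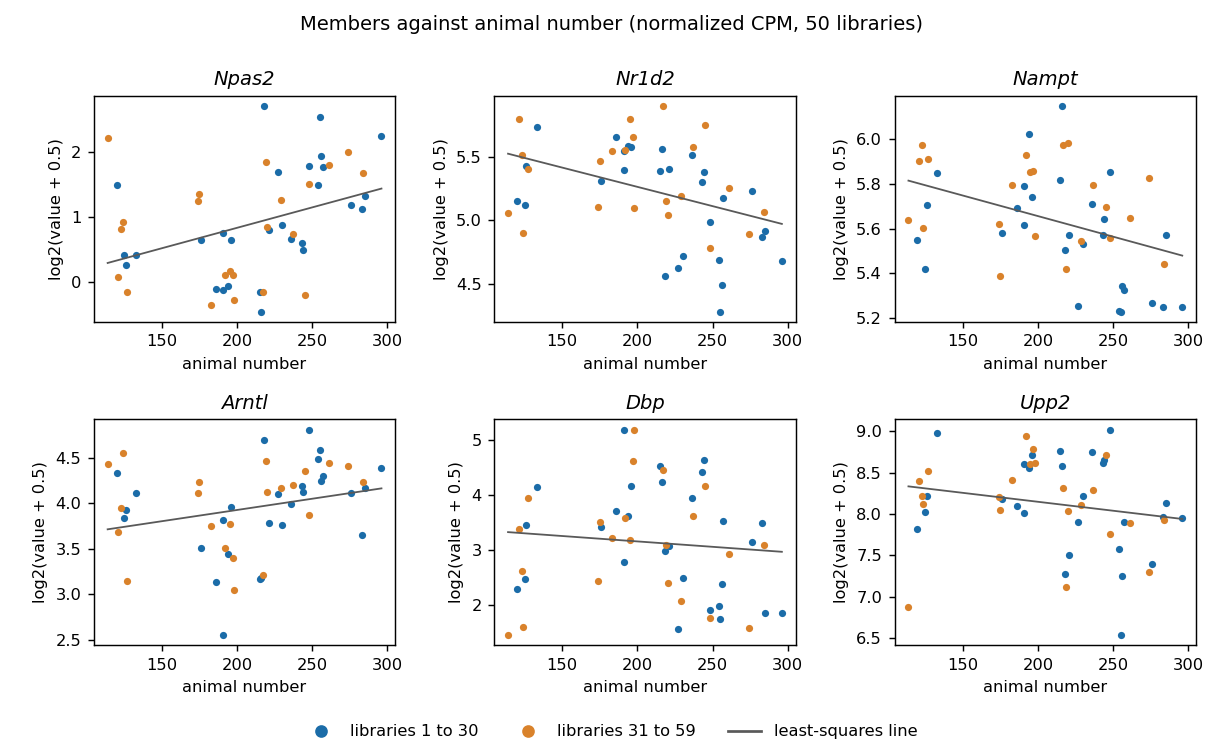
Members as log2(value + 0.5) of normalized CPM (y axis) against animal number (x axis), 1 point per library (n = 50), coloured by library number set, with a least-squares line. Npas2 rose and Nr1d2 and Nampt fell with animal number, while Dbp, Arntl and Upp2 formed runs of like values around some numbers, without passing the test for a slope.

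Some members share annotated exon bases with a gene on the other strand. Dbp shares 539 bases with Sphk2, whose mean was 52.4 normalized CPM, and Nr1d1 shares 263 bases with Thra, at 14.1. The libraries were stranded, and the strand setting of the counting is not given in the sources used here. Given as a description, the r of log2 values over the 50 libraries was 0.185 (rho 0.176) between Dbp and Sphk2 and -0.582 (rho -0.609) between Nr1d1 and Thra. The other members with such a partner overlap genes that are not in the table.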

How the data were processed

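Per the study's methods, RNA of each liver was made into stranded, poly(A)-selected libraries. After trimming, HISAT2 placed the reads on GRCm38.p5 and HTSeq (0.11.1 in the submitters' processing notes) gave gene counts, from which the authors dropped low genes before scaling with edgeR. The deposited values are a normalized signal, CPM on library sizes scaled by the authors. Dividing by the value of 1 read gave whole reads for 100% of values within 0.01. The table has 12185 rows, of which 5 are totals of unassigned reads that name no gene. They held 17.00% to 25.3% of each column's sum and were left out. Positions came from GENCODE M21 on GRCm38 (12177 of 12180 genes), and promoter sequences from RefSeq.

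Relations were tested 2-sided with limma 3.58.1 in R 4.3.3 on log2(value + 0.5) with a filter that kept genes averaging 1 or more. The p-values were adjusted by Benjamini-Hochberg over all genes tested, with a threshold of 0.05. A fold on this scale understates changes of low genes. The tests were made on all 50 libraries, taken as 1 group and as independent of one another. Correlations of members with Dbp, Arntl and Fkbp5 used 100000 permutations. Members past the threshold were named, up to 12 per direction, and outside the members the 5 highest and the 5 lowest correlations with each reference gene. Lists of markers, clock regulators, clock outputs, glucocorticoid-responsive and fasting-responsive genes were examined. The members and lists were chosen with earlier results of these data known, and other genes or pairs were chosen after their values were seen. Alternatives covered the pseudocount, filter, scaling, covariates, libraries left out, ranks and edgeR 4.0.16 on the whole reads, and the scripts were tested on simulated data. The other steps ran in Python 3.11.15 (scipy 1.17.1, pandas 2.3.3, numpy 2.4.6, matplotlib 3.10.9). Genotypes were not used here, and a few genes of the lists are not reported here by name.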

Additional observations from a re-analysis of the deposited data

How the results depend on the processing

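No called slope of a member changed sign under any alternative run. Of the members called, 5 of 14 with Dbp, 3 of 18 with Arntl and 5 of 13 with Fkbp5 passed under every alternative in which they were tested (at most 21), and 0 of 3 each (at most 18) for library number set and for animal number. Changes of the pseudocount and median-of-ratios scaling moved no count by over 1.5 times. Within libraries 1 to 30 and 31 to 59, where fewer samples entered, members called were 8 and 5 with Dbp (0.280% and 0.122% of all genes tested), 10 and 3 with Arntl (3.38% and 0.420%) and 7 and 7 with Fkbp5 (6.33% and 4.12%). With Fkbp5 as a covariate, 11 members and 6.53% of all genes were called for Arntl and 1.10% of all genes for Dbp. The genes called for Dbp were 3.96% of all without the libraries numbered 10 and 22, added once the data had been seen, and 1.07% without the 2 libraries farthest in Dbp, against 2.61%. For Arntl the share went from 11.3% to 4.93% when reads on the 10 highest genes entered as a covariate to 5.22% with animal number and to 7.06% without the library numbered 15, also added later. For library number set, members called were 0 with counted reads as a covariate (7.06% of all genes in place of 13.5%), 0 with the share of the 10 highest genes and 1 without libraries sharing an animal number. For animal number they were 0 with the share of the 10 highest genes (0.542% of all genes in place of 14.2%), 0 with Arntl as a covariate (8.56%, also added later), 1 without libraries sharing an animal number and 1 without the library numbered 24. The cause was not tested. Among slopes that did not pass, that of Tsc22d3 on Dbp was 0.0193 in libraries 31 to 59. On Fkbp5, Per1 had a correlation of ranks of -0.00504, and Noct had -0.0699 by ranks, -0.00983 by edgeR, -0.0338 without the library numbered 15 and -0.0503 in libraries 1 to 30. Means of the 33 members moved by less than 1 SD between livers when taken on the log2 scale, rescaled, or without libraries sharing an animal number. This is a wide limit, which such changes could hardly exceed. On the log2 scale the mean of Lpin1 went from 183.7 to 138.9 normalized CPM and that of Dbp from 10.7 to 8.29. No paired analysis was possible because all libraries belong to 1 group. Depth limits Bhlhe41, Timeless and Csnk1e most, where counts were low or counting error was a large part of the variance.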

Other observations

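Outside the members, genes of the listed groups are given beside all genes tested, of which 7.49% rose and 6.73% fell with animal number. Of 25 clock outputs 5 rose and 3 fell (20% and 12%, limma, adjusted p under 0.05). Cyp7a1, the rate-limiting enzyme of bile acid synthesis, rose by 0.73 log2 units per 100 animal numbers (SE 0.18, adjusted p = 0.00453) and Elovl3, a fatty acid elongase, had a slope of -1.09 (SE 0.33, adjusted p = 0.0190). Of 22 fasting-responsive genes 4 rose (18.2%) and 0 fell (limma, 1 lower at an unadjusted p under 0.05). Among the 4, the fatty acid hydroxylases Cyp4a14 and Cyp4a10 rose by 0.48 (SE 0.085, adjusted p = 0.000266) and 0.36 (SE 0.076, adjusted p = 0.00118). Of 20 glucocorticoid-responsive genes, the metallothioneins Mt1 and Mt2 and Lcn2 rose (15%). Of 27 clock regulators 2 rose, among them Csnk1a1, and 1, Sirt1, fell (7.41% and 3.7%), which is no more than the share of all genes. Among red cell markers, Hbb-bs and Hba-a1 rose and Alas2 fell, and of hepatocyte markers Alb, Cps1 and Ahsg rose. With the share of reads on the 10 highest genes as a covariate, 62 of all genes passed with animal number in place of 1625. Slopes of the listed genes under that covariate are not given here.

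Between library number sets, 7 of 27 clock regulators were higher in libraries 31 to 59 and 2 lower (25.9% and 7.41%, against 7.06% and 6.41% of all genes). Among the higher were Prkaa1 and Prkaa2, catalytic subunits of AMP kinase, by 0.25 (SE 0.050, adjusted p = 0.00104) and 0.26 (SE 0.063, adjusted p = 0.00413). Of 20 glucocorticoid-responsive genes, the receptor Nr3c1 itself (0.26, SE 0.053, adjusted p = 0.00127) and Klf9 were higher (10%), near the share of all genes.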
